A study of Homo sapiens with 6 samples.

Results

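The constitutive subunits of the proteasome were examined in HT29 cells, a human colorectal adenocarcinoma line with epithelial morphology. The family was taken by gene symbol alone, as PSMA, PSMB, PSMC or PSMD followed by digits and without the immunoproteasome subunits PSMB8, PSMB9 and PSMB10, which gave 36 of the 28278 listed genes. The rule itself uses no measured value, although it was set with earlier results of these data known. Cells of 3 libraries received siRNA against ALDOA (siALDOA, labeled as ALDOA KD) and cells of 3 libraries received scrambled siRNA (siControl, labeled as WT), and RNA was taken 48 h later. All 6 libraries came from 1 cell line, the labels name a single ALDOA siRNA, and no untransfected cells were among the samples, so an effect of the loss of ALDOA and an effect of that siRNA on other transcripts cannot be told apart.

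The proteasome degrades proteins that carry ubiquitin chains. Its barrel, the 20S core, stacks rings of alpha subunits (PSMA), which gate the entrance, on rings of beta subunits (PSMB), of which PSMB6, PSMB7 and PSMB5 carry the proteolytic sites. The 19S cap consists of a base, in which the PSMC ATPases unfold the substrate, and a lid of PSMD subunits that includes PSMD14, the deubiquitinase that removes the chain. PSMD1, PSMD2 and PSMD4 are the other base subunits, and PSMD4 binds ubiquitin chains directly. PSMD5, PSMD9 and PSMD10 are chaperones that build the base and leave it before the cap is complete. In interferon-treated cells PSMB9, PSMB10 and PSMB8 replace PSMB6, PSMB7 and PSMB5 in newly built cores. Transcription of the subunit genes is known to be raised together by NFE2L1 through antioxidant response elements when proteasome activity falls.

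Because a common promoter element is the known route to a joint response, the promoters were searched for the core of the antioxidant response element, TGACNNNGC, on both strands. RefSeq promoters of GRCh38.p14 cover 250 bases before to 50 bases after each start site, and 31 of the 36 subunit genes were in that table. PSMA7, PSMB1, PSMB6, PSMB7 and PSMD4 were not in it. The core was present in 9 of the 31 (29%), and in 17.9% of 15843 protein-coding genes of the table. Here and for the words below, a gene counted if any of its listed start sites had the word. The genes were not matched by number of start sites or base composition, so these shares alone do not establish an enrichment. The following windows, written 5′ to 3′ on the strand of the gene with the core in capitals, are matches that lay upstream of a RefSeq start site of the gene. They are shown because these genes share the word, and none of them passed the test of expression described below. In PSMC5 the core lies on the other strand. PSMA4 and PSMC5 also have start sites further upstream, so that their windows lie inside the annotated gene.
PSMA4, chr15:78540650-78540678, plus strand: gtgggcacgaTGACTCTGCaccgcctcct
PSMB3, chr17:38752627-38752655, plus strand: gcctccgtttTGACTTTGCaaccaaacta
PSMC5, chr17:63827654-63827682, plus strand: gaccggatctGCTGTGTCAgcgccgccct
PSMD3, chr17:39980760-39980788, plus strand: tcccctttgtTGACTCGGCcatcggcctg
PSMD5, chr9:120843038-120843066, minus strand: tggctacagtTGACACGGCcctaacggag
PSMD9, chr12:121888678-121888706, plus strand: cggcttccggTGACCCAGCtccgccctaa
PSMD12, chr17:67366724-67366752, minus strand: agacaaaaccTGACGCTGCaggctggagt

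In PSMD9 a further core lay more upstream, in PSMD3 a further one lay after the start site, and in PSMC4 and PSMD1 the only core lay after the start site. The 9 genes with the core had a median log2 fold change of 0.03 with siALDOA, ranging from -0.16 for PSMD9 to 0.11 for PSMB3. The 20 tested genes without it had a median of 0.00 and ranged from -0.18 to 0.16. The ranges of the sets with and without the core overlapped widely.

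A word that ETS factors are known to bind, CGGAAG on either strand, was more frequent. It was present in 20 of the 31 subunit promoters (64.5%) and in 29.7% of the protein-coding genes. It is shown for PSMD7, PSMD14 and PSMA6, which are described below, and for PSMC2, where it is read on the other strand as CTTCCG. The PSMA6 and PSMC2 windows precede RefSeq start sites but lie inside the longer GENCODE genes.
PSMA6, chr14:35292348-35292373, plus strand: catgcaagagCGGAAGaaacgcggct
PSMC2, chr7:103347610-103347635, plus strand: gcccaatttaCTTCCGgtggggaagg
PSMD7, chr16:74296770-74296795, plus strand: actctgggagCGGAAGaaggaggccg
PSMD14, chr2:161308386-161308411, plus strand: cgtcggggaaCGGAAGccgaagcaaa

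The CCAAT box was present in 17 of the 31 subunit promoters (54.8%) and in 42.1% of the protein-coding genes. No bases were shared between matches of different words in the subunit promoters. The tested genes with CGGAAG had a median log2 fold change of 0.03 and those without it of 0.00. A match is only a description of the letters, and factor binding was not measured.

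The libraries held between 27277538 and 33237914 counts on genes, and each tested subunit had at least 544 counts in every library, the lowest in PSMD9. The targeted gene ALDOA, which encodes a glycolytic aldolase, was at 283, 305 and 280 CPM with siALDOA and at 592, 637 and 668 CPM with siControl, and fell by 1.13 on the log2 scale (adjusted p = 6.95e-11, edgeR). CPM are counts relative to library size after TMM scaling, which sets the bulk of genes to no change. Of 8 colon epithelial markers 7 exceeded 1 CPM, whereas LGALS4 was listed at 0 in all 6 libraries. Of the markers of other cell types only COL1A1 exceeded 1 CPM. The share of ribosomal RNA genes ranged from 7.71% to 13.1% with siALDOA and from 8.15% to 17.4% with siControl, and the calls in the family were the same when these genes were left out. In RNA of whole cultures, fewer cells making an mRNA and less of it per cell cannot be told apart.

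After 48 h of siALDOA, the summed mRNA of the proteasome was at the level of the controls on the TMM scale. The summed level of the family was 3186, 3141 and 3135 CPM with siALDOA and 3072, 3243 and 3147 CPM with siControl. The siALDOA libraries all lay within the range of the siControl libraries, and the means were 3154 ± 28.1 and 3154 ± 85.8 CPM (SD, n = 3). As a share of all counts outside ribosomal RNA genes, the family took between 0.355% and 0.362% with siALDOA and between 0.349% and 0.365% with siControl. With ribosomal RNA genes included, its shares were 0.315%, 0.329% and 0.327% with siALDOA and 0.288%, 0.310% and 0.325% with siControl, which overlapped but were higher in the mean with siALDOA.

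Of the 34 subunit genes tested, 1 was upregulated and 0 were downregulated at an adjusted p under 0.05 (edgeR's quasi-likelihood test, adjusted over all 15307 genes tested). Over all genes tested 9.66% were called, 4.36% higher and 5.29% lower, which was 668 and 810 genes, and 896 and 279 genes when scaled by library totals only. The upregulated subunit was PSMD4. Among the 7685 genes at or above the mean CPM of the lowest subunit, 14.3% were called, 6.02% higher and 8.26% lower. At an unadjusted p under 0.01, the threshold the study used, 1 of the 34 passed, against 12.5% of all genes tested and 18% at that level. At an unadjusted p under 0.05, 6 of the 34 passed, against 23.6% and 30.9%. With limma-voom and with DESeq2 the counts in the family were also 1 and 0. With the replicate numbers fitted as a block (replicate block), the counts were 1 and 2, PSMB6 and PSMD7 being lower. They were 0 and 2 without siALDOA replicate 1, 0 and 1 without siControl replicate 1, and 0 and 0 without siALDOA replicate 2 or siControl replicate 3. The log2 fold changes had a median of 0.02 and ranged from -0.20 for PSMB6 to 0.22 for PSMD4, whereas the median of all genes tested was 0.00. Scaled by library totals only, the median was 0.09 in the family and 0.08 over all genes, so the difference between them stayed at 0.02 log2 units. A log2 fold change above 0 was found for 20 of the 34, against 50.3% of all genes tested and 45.9% at that level, and for 26 of the 34 with library totals only, against 66.1% of all genes tested. The directions given below for genes that did not pass are on the TMM scale.

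**Figure D1:**
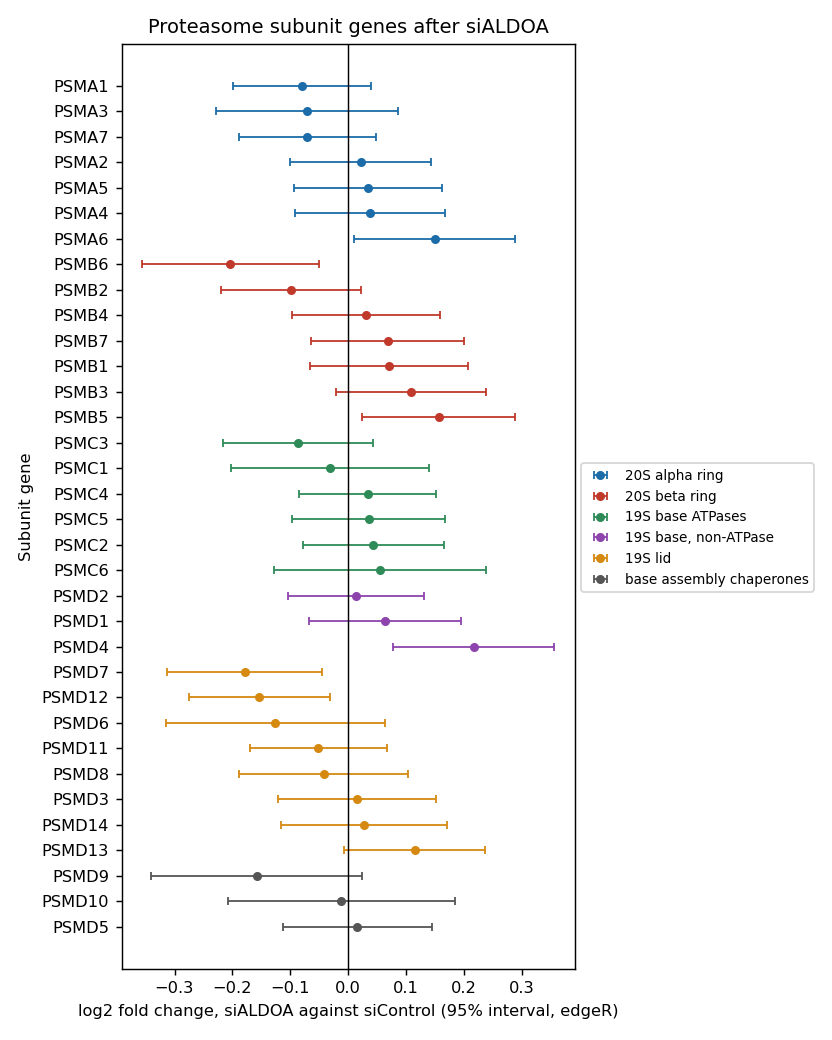
Log2 fold change of each of the 34 tested subunit genes (x axis, siALDOA against siControl, points) with its 95% interval (bars, edgeR), grouped and colored by position in the complex. Points lie between -0.20 and 0.22, and the intervals of 28 of the 34 include 0.

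The intervals allow a statement on how large a change could have been missed on the TMM scale. They leave out the uncertainty of the scaling itself. The 95% intervals of all 34 tested subunits lay within 0.58 log2 units of 0 (a 1.5-fold change), as did 72.2% of all genes tested and 96.7% of the 7685 genes at or above the level of the lowest subunit. For 31 of the 34 the interval lay within 0.32 log2 units of 0, against 44% of all genes tested and 74.2% of the 7685 genes. PSMB6, PSMD9 and PSMD4 were the exceptions, with the lowest bound at -0.36 for PSMB6 and the highest at 0.36 for PSMD4. The SD of the log2 fold changes was 0.0987 over the subunits and 0.199 over the genes at or above the lowest subunit. The mean levels of the subunits ran from 22.2 to 163 CPM, and the 7685 genes were only cut at the lowest, not matched in level. How much of these contrasts comes from the level was not tested. In the TMM fit of all 6 libraries, no subunit had an absolute log2 fold change above 0.25. That size was passed by 25.3% of all genes tested and by 11.8% of those at or above the lowest subunit. In other fits PSMD4 passed it, at 0.29 with library totals only, 0.27 without siControl replicate 2 and 0.26 without siALDOA replicate 3. PSMB6 passed it without siControl replicate 1, at -0.26.

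**Figure D2:**
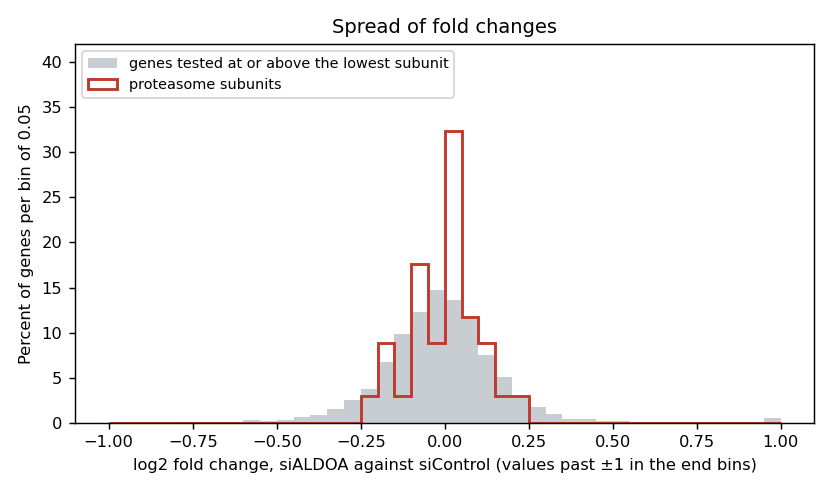
Percent of genes (y axis) in bins of 0.05 of log2 fold change (x axis, siALDOA against siControl) for the 34 tested subunits (line) and the 7685 genes tested at or above the mean CPM of the lowest subunit (gray). The subunits lie between -0.20 and 0.22, and gray bins extend past them on both sides.

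Groups without overlap were about as frequent in the family as over all genes tested. In 4 of the 34 subunits every siALDOA library was above every siControl library, and in 6 every one was below. Over all genes tested these shares were 13.1% and 14.6%, and at or above the level of the lowest subunit 14.2% and 20.5%. The 4 were PSMD4, PSMB5, PSMA6 and PSMD13, and the 6 were PSMD7, PSMB6, PSMD12, PSMB2, PSMA1 and PSMD9. The members' counts were near this background. Expressed as a share of the summed family counts in each library, which needs no scaling between libraries, 5 subunits were above and 7 were below without overlap, against 12.4% and 14.2% of all genes tested when divided by the same family counts, with PSMB7 joining the first group and PSMC3 the second.

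PSMD4 (ENSG00000159352, chromosome 1 of hg38, 151254709 to 151267479, plus strand), the ubiquitin receptor of the base, was at 86.5, 86.2 and 79.2 CPM with siALDOA and at 67.6, 77.5 and 71.7 CPM with siControl. All siALDOA libraries were above all siControl libraries, although the lowest siALDOA and the highest siControl library were close. It rose by 0.22 on the log2 scale (standard error 0.067, adjusted p = 0.0447, edgeR). The call held under the other tools, scalings and filters, with adjusted p from 0.0255 to 0.0456, and was lost when any 1 of 4 libraries was left out. Leaving out siALDOA replicate 1 gave an adjusted p of 0.0776 and leaving out siALDOA replicate 2 one of 0.150. Leaving out siControl replicate 1 gave 0.170, and for siControl replicate 3 it was 0.154. Its share of the family counts was 2.71%, 2.75% and 2.53% with siALDOA and 2.20%, 2.39% and 2.28% with siControl. A pseudogene, PSMD4P1, is annotated in GENCODE, and how reads matching both were counted is not stated.

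The other base subunits of this kind were close to the controls. PSMD1, a large scaffold of the base, was at 85.8, 79.8 and 81.8 CPM with siALDOA and 78.1, 83.1 and 75.5 CPM with siControl. PSMD2, the scaffold that docks shuttle receptors, had means of 158 ± 6.52 and 156 ± 1.92 CPM (SD, n = 3), and a log2 fold change of 0.01. In both genes the libraries of the groups overlapped.

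**Figure D3:**
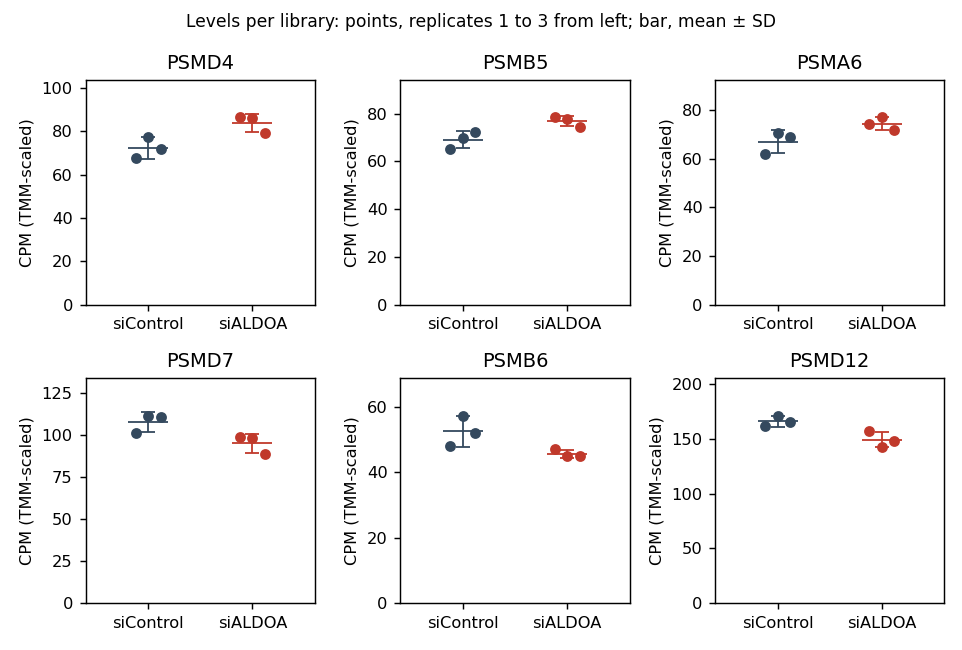
TMM-scaled CPM (y axis, from 0) in each library of the 6 subunits with the smallest p. Points are replicates 1 to 3 from left to right, bars are the mean ± SD (n = 3). PSMD4, PSMB5 and PSMA6 lie above and PSMD7, PSMB6 and PSMD12 below the controls in all 3 siALDOA libraries, and only PSMD4 passed an adjusted p under 0.05.

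In the beta ring, 5 of 7 genes had a log2 fold change above 0, against 50.3% of all genes tested, and none passed the test. The 3 catalytic subunits did not share a direction. PSMB6 (ENSG00000142507, chromosome 17, 4796144 to 4798502), with caspase-like activity, was at 47.0, 44.9 and 44.9 CPM with siALDOA and at 48.1, 57.4 and 52.0 CPM with siControl. Every siALDOA library was below every siControl library, with siALDOA replicate 1 and siControl replicate 1 close to each other. The log2 change was -0.20 (standard error 0.073, adjusted p = 0.0868, edgeR), and without siControl replicate 1 it passed the threshold at -0.26 (adjusted p = 0.0389). It also passed with the replicate block, at -0.20 (adjusted p = 0.0489). Without siControl replicate 2 it was at -0.14 (adjusted p = 0.367) and with library totals only at -0.13 (adjusted p = 0.423).

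PSMB5 (ENSG00000100804, chromosome 14, 23016543 to 23035230), with chymotrypsin-like activity and the site that bortezomib binds, was at 78.5, 77.8 and 74.5 CPM with siALDOA. With siControl it was at 65.1, 69.8 and 72.2 CPM. The groups did not overlap, and the log2 fold change was 0.16 (standard error 0.063, adjusted p = 0.132, edgeR). PSMB7, with trypsin-like activity, was at 82.2, 76.1 and 75.5 CPM with siALDOA and 70.8, 76.9 and 75.3 CPM with siControl. Its groups overlapped, with a log2 fold change of 0.07 (adjusted p = 0.573), and 0.03 without either siALDOA replicate 1 or siControl replicate 1.

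Within each library, the PSMB5 level per kb of transcript was 1.32, 1.37 and 1.31 times that of PSMB6 with siALDOA, and 1.07, 0.960 and 1.09 times with siControl. The log2 difference of this ratio was 0.36. This pair was picked after its values were seen, with PSMB5 above and PSMB6 below the controls in all siALDOA libraries. Its ratio was therefore bound to separate the groups, and no p is given. Of the subunits without a catalytic site, PSMB3 was at 135, 117 and 121 CPM with siALDOA and at 118, 115 and 114 CPM with siControl. Its groups overlapped, with siALDOA replicate 1 the highest. The log2 difference was 0.11 (standard error 0.062, adjusted p = 0.312, edgeR), and 0.05 without siALDOA replicate 1. PSMB2 had a log2 difference of -0.10 (standard error 0.058, adjusted p = 0.321, edgeR). It was at 105, 103 and 106 CPM with siALDOA, below each of the siControl libraries at 109, 117 and 111 CPM. PSMB1 and PSMB4 were at 0.07 and 0.03 on the log2 scale, with overlapping groups.

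Of the immunoproteasome subunits that take the places of the catalytic subunits, PSMB9 and PSMB8 were upregulated. PSMB9 rose by 1.44 on the log2 scale (adjusted p = 1.71e-08) and PSMB8 by 0.75 (adjusted p = 7.73e-06), and PSMB10 did not pass at 0.22 (adjusted p = 0.121, edgeR). Without siControl replicate 3 PSMB10 passed at 0.33 (adjusted p = 0.0289), and without siControl replicate 1 it was at 0.14 (adjusted p = 0.388). The count per kb of PSMB9 was 0.373, 0.418 and 0.479 of that of PSMB6 with siALDOA, and 0.149, 0.137 and 0.121 with siControl. For PSMB8 against PSMB5 the ratios were 0.648, 0.692 and 0.698 with siALDOA and 0.392, 0.487 and 0.468 with siControl. Both ratios were higher in all siALDOA libraries, by 1.64 and 0.60 on the log2 scale (exact two-sided permutation p = 0.10 each, the smallest possible). For PSMB10 against PSMB7 the ratios were 0.525, 0.624 and 0.580 with siALDOA and 0.482, 0.483 and 0.589 with siControl, which overlapped, with a log2 difference of 0.16 (exact permutation p = 0.30). In all 6 libraries each constitutive mRNA remained above its immunosubunit per kb. Exons of PSMB8 and PSMB9 overlap each other and PSMB8-AS1 in GENCODE, and the strand setting of the counts is not stated.

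**Figure D4:**
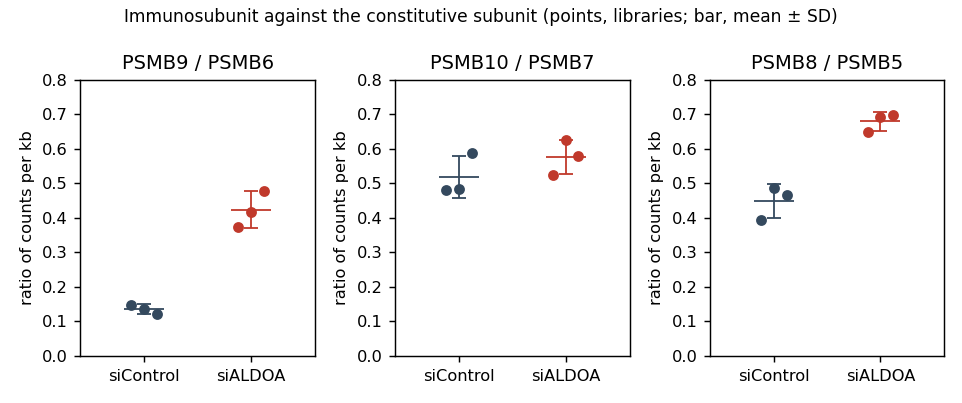
Ratio of counts per kb of canonical transcript (y axis, from 0) of each immunosubunit to the constitutive subunit it replaces, in each library (points) with mean ± SD (bars, n = 3). PSMB9/PSMB6 and PSMB8/PSMB5 are higher in all 3 siALDOA libraries, PSMB10/PSMB7 overlaps, and no ratio reaches 1.

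In the alpha ring, 4 of 7 genes had a log2 fold change above 0, against 50.3% of all genes tested, 3 were below, and none passed the test. PSMA6 (ENSG00000100902, chromosome 14, 35278633 to 35317493) was at 74.3, 77.0 and 71.7 CPM with siALDOA and at 61.7, 70.5 and 68.8 CPM with siControl. The groups did not overlap, and the log2 fold change was 0.15 (standard error 0.067, adjusted p = 0.175, edgeR), and 0.09 without siControl replicate 1 (adjusted p = 0.483). The lowest value of the ring was that of PSMA1, at -0.08 (adjusted p = 0.437), with 108, 106 and 104 CPM against 112, 115 and 109 CPM. PSMA3, whose amino terminus contributes to the gate of the core, was at -0.07, and its libraries overlapped. PSMA2, PSMA4 and PSMA5 lay between 0.02 and 0.04, PSMA7 was at -0.07, and in these genes the libraries of the groups overlapped.

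The 6 ATPases of the base, which form the ring that pulls substrates into the core, stayed close to the controls. Their log2 fold changes ranged from -0.09 for PSMC3 to 0.05 for PSMC6, with a median of 0.03. None passed the test and in none of the 6 were the groups apart in CPM, although PSMC3 was apart as a share of the family counts. PSMC3 was at 67.0, 71.7 and 68.5 CPM with siALDOA and at 70.7, 74.6 and 74.7 CPM with siControl (adjusted p = 0.435, edgeR). PSMC6 was at 41.3, 37.4 and 33.8 CPM and at 39.2, 36.8 and 32.3 CPM, so its spread within a group was larger than the difference between the groups. PSMC4 and PSMC5, at 0.03 and 0.04, were among the genes with an antioxidant response element core in the promoter.

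In the lid 3 of 8 genes had a log2 fold change above 0 and 5 below, and none passed the test. Above 0 were 50.3% of all genes tested and 45.9% of those at or above the lowest subunit. PSMD7 (ENSG00000103035, chromosome 16, 74296814 to 74306288), the partner with which PSMD14 forms the deubiquitinating unit, was at 98.4, 98.0 and 88.6 CPM with siALDOA and 101, 111 and 110 CPM with siControl. Every siALDOA library was below every siControl library, and the log2 fold change was -0.18 (standard error 0.064, adjusted p = 0.0859, edgeR). It passed the threshold without siALDOA replicate 1 (-0.21, adjusted p = 0.0480) and with the replicate block (-0.18, adjusted p = 0.0374). It was at -0.13 without siALDOA replicate 3 (adjusted p = 0.293) and at -0.11 with library totals only (adjusted p = 0.495).

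PSMD12, a scaffold subunit of the lid, was at 157, 143 and 148 CPM with siALDOA and at 162, 171 and 165 CPM with siControl. The groups did not overlap, and the log2 fold change was -0.15 (standard error 0.058, adjusted p = 0.106, edgeR). It passed without siALDOA replicate 1 (-0.19, adjusted p = 0.0301), and was at -0.12 without siALDOA replicate 2 (adjusted p = 0.317) and at -0.08 with library totals only (adjusted p = 0.604). The deubiquitinase PSMD14 (ENSG00000115233, chromosome 2, 161308425 to 161411717) was at 54.1, 48.3 and 52.7 CPM with siALDOA and 49.4, 53.2 and 49.6 CPM with siControl. Its groups overlapped, and the log2 fold change of 0.03 had a 95% interval from -0.12 to 0.17.

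PSMD13 went the other way within the lid, at 115, 118 and 126 CPM with siALDOA and at 110, 110 and 112 CPM with siControl. Its groups did not overlap, and its log2 fold change of 0.11 did not pass (standard error 0.059, adjusted p = 0.244, edgeR) and was 0.07 without siALDOA replicate 3. PSMD8 varied most between the siALDOA libraries, with 125, 154 and 151 CPM, around siControl values of 144, 151 and 149 CPM. PSMD3, PSMD6 and PSMD11 had log2 fold changes of 0.02, -0.13 and -0.05, each with overlapping groups. As sums, the lid subunits were at 825, 844 and 851 CPM with siALDOA and 853, 882 and 878 CPM with siControl, so every siALDOA library lay below every control. The lid was also apart as a share of counts outside ribosomal RNA genes, at 0.0938% to 0.0965% with siALDOA and 0.0969% to 0.0994% with siControl. As a share of all counts, ribosomal RNA genes included, it overlapped, at 0.0816% to 0.0886% with siALDOA and 0.0801% to 0.0907% with siControl. The sums of the alpha ring, the beta ring, the ATPases and the chaperones overlapped in CPM and outside ribosomal RNA genes. As a share of all counts the alpha ring (0.0727% to 0.0743% against 0.0659% to 0.0725%) and the beta ring (0.0634% to 0.0652% against 0.0554% to 0.0632%) were above the controls in all siALDOA libraries. Which sums were apart thus depended on the scaling. The sum of PSMD1, PSMD2 and PSMD4 was 336, 317 and 319 CPM with siALDOA and 301, 319 and 303 CPM with siControl, which overlapped. As a share of all counts this sum was above the controls, at 0.0332% to 0.0333% against 0.0282% to 0.0313%, and outside ribosomal RNA genes the lowest siALDOA and the highest siControl library were both at 0.0360%.

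Of the 3 chaperones of the base, PSMD9 had the lowest level of the 34 tested subunits, at 19.5, 22.1 and 21.4 CPM with siALDOA and 22.9, 23.8 and 23.7 CPM with siControl. The groups did not overlap, and the log2 fold change was -0.16 (standard error 0.087, adjusted p = 0.290, edgeR). PSMD5 and PSMD10, the latter known as gankyrin, were at 0.02 and -0.01, with overlapping groups. PSMA8, which takes the place of PSMA7 in spermatogenic cells, had 0 counts in all 6 libraries. PSMB11, the subunit of the thymoproteasome, had 1 count in 1 siControl library. Both did not pass the filter. A count of 0 allows up to 3 counts, which is 0.108 CPM in the library with the fewest scaled counts. This covers counting error only and holds only if reads of the gene could be counted, which some zeros described below leave unclear.

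Levels of different subunits can be compared only per length, and CPM were therefore divided by the kb of the canonical GENCODE transcript. In siControl the median of the 34 subunits was 54.2 CPM per kb. The range ran from 8.61 ± 0.170 for PSMD9 to 161 ± 6.69 for PSMA7 (CPM per kb, SD, n = 3), an 18.6-fold span. After PSMA7 came PSMB3 at 152 ± 2.51, PSMB4 at 108 ± 4.80 and PSMB1 at 103 ± 8.60, of which the last 2 did not differ beyond their spread. The catalytic subunits lay in a narrow band, PSMB7 at 75.5 ± 3.20, PSMB5 at 66.1 ± 3.43 and PSMB6 at 63.7 ± 5.67, with PSMB5 and PSMB6 not apart in siControl.

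The median level was 75.5 CPM per kb in the beta ring, 62.8 in the alpha ring, 53.7 in the base subunits without ATPase activity, 43.6 in the ATPases, 42.4 in the lid and 23.1 in the chaperones. With siALDOA the order was nearly kept, with a Spearman rho of 0.990 between the groups over the 34 subunits, which share the length used for both. The length matters for this order. With the union of all annotated exons as length the rho to the order in siControl was 0.818, and PSMA6 moved from place 13 to place 28. PSMB3 then came first at 99.0 CPM per kb and PSMA7 second, and the span to PSMD9 was 37.0-fold. Which transcripts the cells made was not measured.

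**Figure D5:**
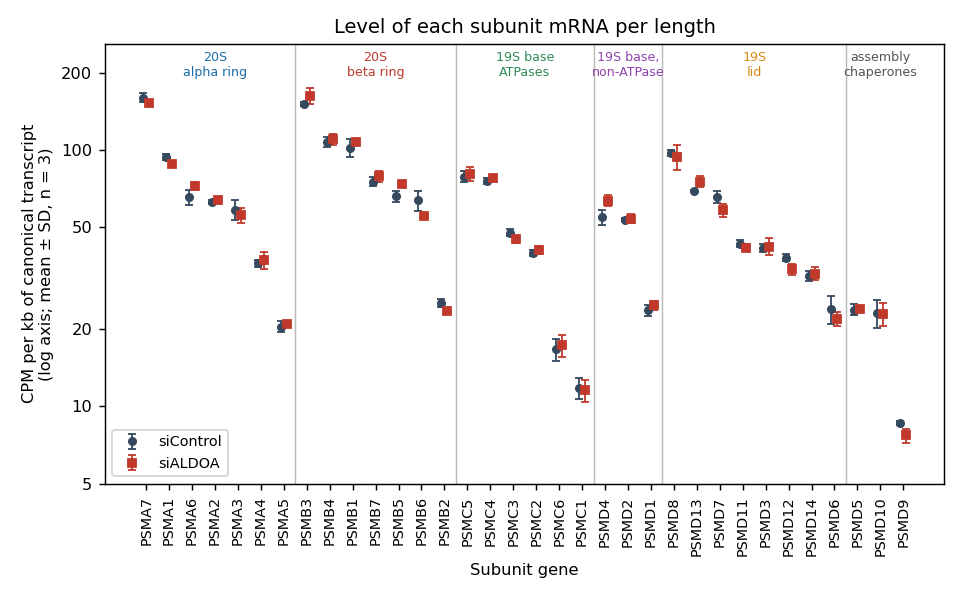
Level of each tested subunit in CPM per kb of canonical transcript (y axis, log scale, mean ± SD, n = 3) in siControl (circles) and siALDOA (squares), ordered by siControl within each part of the complex. Levels run from 8.61 (PSMD9) to 161 (PSMA7) in siControl, and the pairs of points lie close together throughout.

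Around the subunits, 9 lists of proteasome-related genes were counted in the same fit, 45 tested genes of 48. Of these 2 were called higher, both immunosubunits, 2 were called lower and 41 were not called, against 4.36% higher and 5.29% lower over all genes tested. The counts in the single lists below are to be read against the same background. In the list of NFE2L1 control, 0 of 7 passed. NFE2L1 itself was at 330, 364 and 374 CPM with siALDOA and 331, 340 and 359 CPM with siControl, a log2 fold change of 0.05 (adjusted p = 0.656, edgeR), which was 0.10 without siALDOA replicate 1 and 0.01 without siALDOA replicate 3. NFE2L2 and NFE2L3, its relatives, were at -0.17 and -0.15, with adjusted p of 0.109 and 0.111, and NFE2L2 was called lower without siALDOA replicate 1. The remaining subunits of the cap, the ubiquitin receptor ADRM1 and the small subunit SEM1, were at -0.13 and 0.12, and neither passed (adjusted p = 0.292 and 0.458). Single libraries weighed on both, with ADRM1 at -0.03 without siALDOA replicate 1 and SEM1 at 0.0097 without siControl replicate 1.

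Of 9 assembly factors 1 was called. ECPAS, an adaptor that holds core and cap together, fell by 0.23 on the log2 scale (standard error 0.065, adjusted p = 0.0279, edgeR), from 82.5, 88.1 and 85.6 CPM with siControl to 78.0, 68.3 and 72.1 CPM. With library totals only it was at -0.16 and not called (adjusted p = 0.266), and 4 of the 6 fits that left out 1 library lost the call, with adjusted p up to 0.140 without siALDOA replicate 2. POMP, which matures the beta ring, was at 160, 157 and 151 CPM with siALDOA and 150, 170 and 162 CPM with siControl. Its log2 fold change was -0.05, and -0.09 without siControl replicate 1 and -0.0049 without siControl replicate 2. FAF2, a cofactor that recruits VCP to the endoplasmic reticulum, was at 86.1, 88.2 and 90.9 CPM with siALDOA and 99.5, 107 and 108 CPM with siControl. It fell by 0.25 on the log2 scale (standard error 0.060, adjusted p = 0.0115), and was at -0.17 and not called with library totals only (adjusted p = 0.224). It was also lost without siControl replicate 2 (0.0607) and without siControl replicate 3 (0.0848). None of the other 5 VCP cofactors passed.

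The activator PSME3, which caps nuclear cores, was at -0.08 (adjusted p = 0.415), and PSME4 and the inhibitor PSMF1 were not called either. PSME1 and PSME2, which form the interferon-inducible cap, were listed at 0 in all 6 libraries, as was LGALS4. PSME1 and PSME2 are expressed in most cell types and LGALS4 in colon epithelium, so these zeros are given only as listed. Of 4 associated deubiquitinases and ligases, 5 tested shuttle receptors, and 6 ubiquitin and E1 genes, none passed, and their median log2 fold changes were -0.08, 0.02 and 0.07. The ligase UBE3C was called lower with DESeq2 and without siALDOA replicate 1.

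Reads of some subunits may be shared with other loci. In GENCODE, 15 of the 36 members have pseudogenes named after them, 36 in all, of which 0 are listed in the files. Exons of PSMC1, PSMC2, PSMC5, PSMD1 and PSMD6 overlap those of another listed gene, in the case of PSMC2 on the same strand, so their counts are uncertain to that extent. The members lie on 16 chromosomes.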

How the data were processed

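RNA-Seq was done on 3 siALDOA and 3 siControl samples of HT29 cells. Alignment to hg38 was done by the authors with tophat2 and counting with gfold, and the deposited values are whole-number counts per gene symbol that were not normalized. The annotation, strand setting and treatment of multiply matching reads are not given in the sources used here.

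All listed genes were analyzed in R 4.3.3 with edgeR 4.0.16 (filterByExpr, TMM, quasi-likelihood F-test, Benjamini-Hochberg over all 15307 genes tested). Standard errors are the log2 fold change over the square root of F, and 95% intervals use the t quantile of the fit. limma 3.58.1 and DESeq2 1.42.0 were alternatives, beside other scalings, filters, a replicate block and leaving out each library. The methods were tested on simulated counts.

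The members and lists were chosen with earlier results of these data known. The subunits with the 10 smallest p are given in full, the catalytic subunits, PSMD14 and the extremes of each prefix are always named, and in the lists the genes called plus NFE2L1, POMP, PSME1 to PSME3, the immunosubunits, ADRM1 and SEM1. Positions and lengths come from GENCODE release 44 (hg38) and promoters from RefSeq. Replicates of a group differed by more than sampling noise (chi-square per degree of freedom of at least 5.05).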

Additional observations from a re-analysis of the deposited data

How the results depend on the processing

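ALDOA, PSMB9 and PSMB8 kept their direction and call under all 14 alternatives run for them, with ALDOA between -1.17 and -1.06. Of 364 alternative values of 26 named genes, 341 kept direction and call, 12 lost and 7 gained the call, and 4 changed sign in genes not called in either fit. These were PSMD14 without siALDOA replicate 1 (-0.0067), PSMC6 without siALDOA replicate 1 and without siControl replicate 3 (-0.02 each), and POMP with library totals only (0.03). The upregulated subunits numbered 0 to 1 and the downregulated ones 0 to 2 when 1 library was left out, with the median between -0.0023 and 0.032, and the called genes of the related lists 2 to 3 higher and 0 to 4 lower. With library totals only, the lists had 0 lower genes, and the median of the subunits was 0.092, beside 0.075 over all genes. With the union of exons as length, an alternative added after the data were seen, the median level in siControl was 24.2 CPM per kb in place of 54.2. With the replicate block, 2 subunits were downregulated (PSMB6 and PSMD7, adjusted p = 0.0489 and 0.0374) and the lists had 4 lower and 3 higher genes, among them PSMB10 (higher, adjusted p = 0.0429), NFE2L2 and UBE3C (lower). The replicate numbers were not treated as pairs. Deviations from the group means of same-numbered libraries correlated at only 0.03 each over all genes (0.0348, 0.0274 and 0.0262), although every library correlated best with its own number. A correlation of this size does not settle whether the numbers mark pairs. The block moved the calls over all genes from 668 and 810 to 987 and 1175. Without siControl replicate 2 the calls over all genes were 359 and 490, and without siControl replicate 3 they were 363 and 471. The cause of these differences was not tested. With 3 libraries a group the standard errors of the subunits were 0.056 to 0.094 log2 units, which limits how small a change could pass the test.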
